A study of Mus musculus with 20 samples.

Results

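Genes of blood endothelium, the cell layer that lines blood vessels, were followed through the epididymal white fat (eWAT) of mice on a control or a restricted diet. The 10 genes were Vwf, Plvap, Tek, Pecam1, Cdh5, Kdr, Flt1, Emcn, Cldn5 and Tie1, chosen by symbol and matched by gene identifier, 10 of the 55401 genes in the deposited count table. All 10 passed the filter on low counts. The series holds 20 polyA RNA-seq libraries, 10 from a control diet (Control) and 10 from random food restriction (Restricted), a regime that joins intermittent fasting with a cut of 5% in calories. The labels give the mice no strain, age, sex or genotype, and they do not tell whether each library is a separate animal, so p-values measure the spread between these libraries, which may be technical in part. A further label says whether a sample was contaminated with spermatocytes, which are germ cells in meiosis and belong to the testis. It reads Yes for 7 Control and 3 Restricted libraries and No for 3 Control and 7 Restricted libraries. The question addressed was which of the 10 genes differed between the diets in this depot.

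Endothelial cells of blood vessels keep each other in place through junction proteins, above all VE-cadherin. They take growth and survival signals from VEGF, made by fat cells and other neighbours, and from the angiopoietins, made largely by mural cells and by the endothelium itself. In white fat, a dense capillary bed delivers lipoproteins, fatty acids and hormones to and from the adipocytes. Vwf and Plvap are not evenly spread over this bed: Vwf is best known from veins and larger vessels, and Plvap from fenestrated capillaries and venules.

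Libraries held 14306528 to 44061508 counts, and no pair within a diet was within sampling noise (chi-square per degree of freedom of at least 9.42). Adipoq, the adipocyte hormone, lay between 3213 and 5325 CPM in all 20 libraries; CPM are counts scaled to 1000000 counts of tested genes, with edgeR's TMM factors. Restricted 1 and Control 1 to 5, 6 libraries in all, also held transcripts of skeletal muscle. Germ cell transcripts did not follow the label in every library. Control 6 and Control 7, labelled No, had the protamine Prm2 at 11.9 and 2.33 CPM, and Restricted 1 and Restricted 3, labelled Yes, had it at 0.113 and 0.160 CPM. Control 4, 5 and 8, labelled Yes, were below Control 7, at 0.430, 0.376 and 0.378 CPM, and the other 8 libraries labelled No were at 0.124 CPM or less. The label was a term of the model, and called genes are those with an adjusted p under 0.05 in edgeR's quasi-likelihood test over all 15986 tested genes.

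Vwf and Plvap were lower in restricted libraries, where their means fell from 84.3 to 46.4 and from 42.2 to 25.2 CPM. Their calls missed the threshold under some alternatives, among them label Yes alone and RNA integrity as a term. They also did with indices of germ cell and epididymal genes in place of the label, and with replicate number as a term. Tek was lower by less, and its call depended on single libraries. The other 7 genes, which include the general endothelial markers Pecam1 and Cdh5, did not pass the test. Thus 3 of 10 were called lower and 0 higher, where 7.29% of all tested genes were called lower, 6.31% higher and 13.6% in either direction. DESeq2 called the same 3 lower, with 8.01% of all tested genes. All 10 log2 fold changes (Restricted over Control) were negative, with a median of −0.17, while the median over all tested genes was 0.01 and 48.1% of them were negative. The genes share their libraries and moved together from library to library, so the 10 signs are not 10 separate observations. In bulk tissue, fewer endothelial cells and less of these RNAs per cell cannot be told apart.

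The 250 bases before the RefSeq start (GRCm38.p6) were at hand for 6 of the 10 genes: Tek, Kdr, Flt1, Emcn, Cldn5 and Tie1. Vwf, Plvap, Pecam1 and Cdh5 were not among the promoters used. Shown are Tek, the called gene among the 6, its relative Tie1, and the junction gene Cldn5, as 3 members with unequal numbers of the letters GGAA, the core of the motif bound by ETS factors, a family active in endothelium. Capitals mark GGAA or its reverse complement TTCC, overlapping matches included, and the motif was chosen with the sequences in view.
Tek, chr4:94739039-94739288, plus strand: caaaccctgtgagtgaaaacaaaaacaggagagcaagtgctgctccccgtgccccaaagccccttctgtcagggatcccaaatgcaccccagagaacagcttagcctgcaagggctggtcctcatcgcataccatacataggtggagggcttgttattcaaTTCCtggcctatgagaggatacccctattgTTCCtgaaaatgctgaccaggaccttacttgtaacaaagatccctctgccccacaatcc
Tie1, chr4:118489850-118490099, minus strand: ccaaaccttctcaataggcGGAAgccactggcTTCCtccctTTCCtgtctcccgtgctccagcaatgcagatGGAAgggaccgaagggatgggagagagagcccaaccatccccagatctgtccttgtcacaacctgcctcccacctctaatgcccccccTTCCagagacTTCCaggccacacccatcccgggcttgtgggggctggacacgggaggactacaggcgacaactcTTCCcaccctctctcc
Cldn5, chr16:18776597-18776846, plus strand: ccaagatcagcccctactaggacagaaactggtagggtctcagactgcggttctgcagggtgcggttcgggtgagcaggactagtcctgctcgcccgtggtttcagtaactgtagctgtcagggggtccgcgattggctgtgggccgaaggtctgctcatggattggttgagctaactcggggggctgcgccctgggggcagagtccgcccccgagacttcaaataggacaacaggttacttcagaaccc
Tie1 had 7 matches, Kdr, Flt1 and Emcn 4 each, Tek 2 and Cldn5 0. Of the 32851 promoter windows of the same length, 93.4% held at least 1 match, with a median of 3. The longer CAGGAA, which contains GGAA, was found 2 times in Tek and Emcn, 1 time in Tie1 and 0 times in the other 3. Over all windows 25.7% held CAGGAA and 4.2% held it 2 times or more. These are letter matches only, and no factor binding was measured.

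Vwf (chr6:125546774-125686679, GRCm38, plus strand) encodes von Willebrand factor, the large glycoprotein that endothelial cells store and release to catch platelets at an injured vessel wall. In control libraries it ranged from 52.3 to 216.9 CPM with a median of 60.5, and in restricted libraries from 33.1 to 73.8 CPM with a median of 46.3. The means were 84.3 ± 50.7 and 46.4 ± 11.4 CPM (SD, n = 10 each). Of the restricted libraries, 9 lay below the lowest control, and only Restricted 6 overlapped the controls, 4 of which were above it. The log2 fold change was −1.01 ± 0.213 (SE; 95% interval −1.45 to −0.57; edgeR adjusted p = 0.00341). The highest value, 216.9 CPM, belonged to Control 7, and the next control, Control 6, was at 107.4 CPM. Without Control 7 the control mean was 69.6 ± 21.2 CPM (SD, n = 9) and the log2 fold change −0.67 (edgeR adjusted p = 0.0187). So Vwf was called with and without the library that stood apart, and the log2 fold change was larger with it. Over all tested genes 5.21% were called lower without Control 7, and 2 of the 10 genes, Vwf and Plvap.

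Plvap (chr8:71497765-71511752, minus strand) encodes the protein of the diaphragms that close endothelial fenestrae and caveolae. Its control libraries ranged from 26.8 to 78.7 CPM with a median of 42.1, and its restricted libraries from 19.5 to 34.7 CPM with a median of 24.4. The means were 42.2 ± 15.9 and 25.2 ± 4.97 CPM (SD, n = 10 each). All 10 restricted libraries were below the control median and 7 were below the lowest control, while 6 controls were above the highest restricted library. The log2 fold change was −0.80 ± 0.178 (SE; 95% interval −1.17 to −0.43; edgeR adjusted p = 0.00497). Control 7 was again the highest library, and without it the log2 fold change was −0.57 (edgeR adjusted p = 0.0302). Gtpbp3, a gene for a mitochondrial GTP-binding protein, overlaps Plvap on the other strand, and reads of the shared stretch cannot be assigned to either without a stated strand setting. Gtpbp3 itself had a log2 fold change of −0.11 (edgeR adjusted p = 0.377) at 20.8 ± 1.83 and 19.2 ± 2.45 CPM (SD, n = 10 each).

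**Figure D1:**
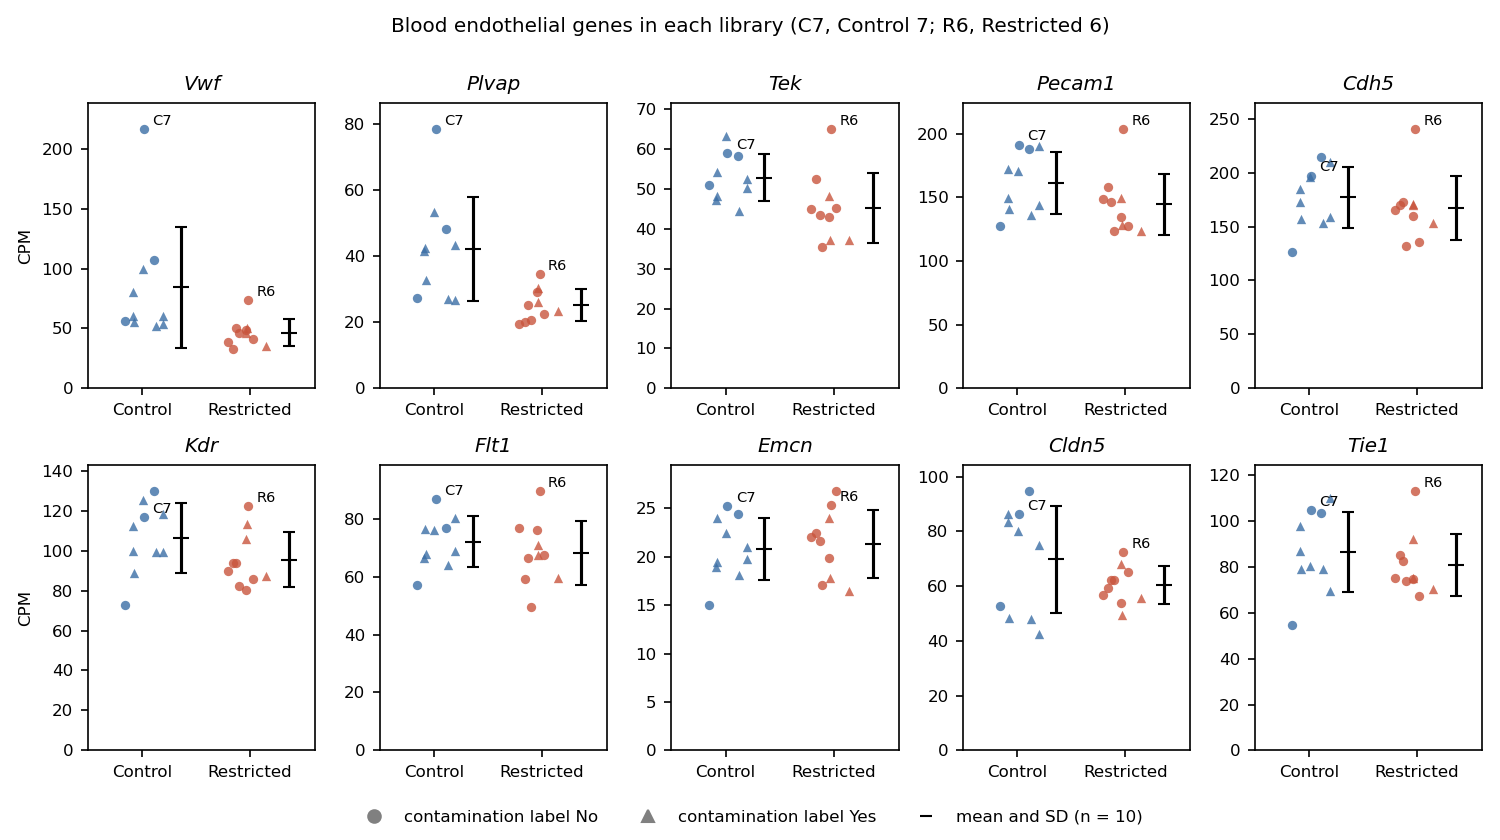
Level of each gene in each library (y axis, CPM; x axis, diet; circles, label No; triangles, label Yes; bars, mean and SD of 10 libraries). The circle of Control 7 stands at 216.9 CPM for Vwf and 78.7 CPM for Plvap, and most restricted points of both genes lie below the lowest control, while the groups overlap for the other 8.

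Both calls were also examined by label and by RNA integrity. With indices of germ cell and epididymal genes in place of the label, neither passed. Vwf was then at −0.81 (edgeR adjusted p = 0.113) and Plvap at −0.62 (edgeR adjusted p = 0.0814). In libraries labelled No, Vwf averaged 126.7 ± 82.2 CPM in 3 controls and 47.4 ± 13.1 CPM in 7 restricted libraries (SD). These 3 controls were Control 3, 6 and 7, at 55.9, 107.4 and 216.9 CPM, and Control 3 lay within the restricted range, which reached 73.8 CPM. In those labelled Yes it averaged 66.1 ± 17.7 CPM in 7 controls and 44.1 ± 7.64 CPM in 3 restricted libraries (SD). Vwf was therefore lower under restriction in both strata, with log2 fold changes of −1.42 in label No alone (edgeR adjusted p = 0.0300) and −0.58 in label Yes alone (edgeR adjusted p = 0.166). Plvap had −1.07 (edgeR adjusted p = 0.0413) and −0.52 (edgeR adjusted p = 0.204). Of all tested genes 1.63% were called lower in label No alone and 0.996% in label Yes alone. The difference between the strata did not pass for either gene: for Vwf it was 0.84 ± 0.407 (SE, edgeR adjusted p = 0.859) and for Plvap 0.55 ± 0.350 (SE, edgeR adjusted p = 0.859). The same held for all 10 genes, among which the smallest unadjusted p was 0.0526, for Vwf, and 0% of all tested genes were called for this difference.

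The RNA integrity number was 7.1 to 7.9 in 9 controls and 6.5 to 7.9 in 8 restricted libraries. Control 7, Restricted 7 and Restricted 10 have none, so a model with this number as a term drops these 3, Control 7 among them. In that model Vwf was at −0.53 (edgeR adjusted p = 0.180) and Plvap at −0.39 (edgeR adjusted p = 0.289). In the same 17 libraries without the term they were at −0.63 (edgeR adjusted p = 0.0323) and −0.52 (edgeR adjusted p = 0.0527). With the term, 0 of the 10 genes were called lower, and 1.17% of all tested genes were. In the 14 libraries without muscle transcripts, Vwf was at −1.24 (edgeR adjusted p = 0.00703) and Plvap at −0.94 (edgeR adjusted p = 0.0121). Both falls were larger than in the 20 libraries, and 3.19% of tested genes were called lower there. Control 7 is among these 14. In the 14 without Control 7, a set added after seeing the data, Vwf was at −0.77 and Plvap at −0.61, and neither passed. Without Control 6, Restricted 1 and Restricted 3, whose Prm2 levels went against their label, they were at −1.29 (edgeR adjusted p = 0.0118) and −0.96 (edgeR adjusted p = 0.0262). That set, too, was added after seeing the data. That set still holds Control 7, the library with the highest Vwf and Plvap and with Prm2 above 3 libraries labelled Yes. With Control 7 left out as well, Vwf was at −0.57 (edgeR adjusted p = 0.357) and Plvap at −0.43 (edgeR adjusted p = 0.474), and neither passed. Among those 16 libraries only 1 control is labelled No and only 1 restricted library Yes, so diet and label can hardly be told apart there.

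Emcn (chr3:137341067-137432185, plus strand) encodes endomucin, a sialomucin of capillary and venous endothelium. It ranged from 15.0 to 25.2 CPM in controls, with a median of 20.4, and from 16.4 to 26.8 CPM in restricted libraries, with a median of 21.8. The groups overlapped over nearly their whole range. The log2 fold change was −0.02 (95% interval −0.24 to 0.20; edgeR adjusted p = 0.913), and its sign was not stable across the alternatives tried.

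Tek and Tie1 encode the TIE receptors. Tek (chr4:94739289-94874976, plus strand) encodes TIE2, the tyrosine kinase that binds the angiopoietins. It ranged from 44.4 to 63.4 CPM in controls, with a median of 51.7, and from 35.5 to 65.1 CPM in restricted libraries, with a median of 44.3. Of the restricted libraries 5 were below the lowest control, yet the highest of all 20 was Restricted 6. The log2 fold change was −0.29 ± 0.0966 (SE; 95% interval −0.49 to −0.09), with an edgeR adjusted p of 0.0480. This call was lost without any 1 of 15 of the 20 libraries, taken singly; without Restricted 1 the value was −0.26 (edgeR adjusted p = 0.109). It remained when Control 3, Control 9, Restricted 3, Restricted 6 or Restricted 7 was left out.

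Tie1 (chr4:118471191-118489755, minus strand) encodes the orphan relative of TIE2 that pairs with it. Controls ranged from 54.5 to 110.2 CPM with a median of 83.8, and restricted libraries from 67.4 to 113.2 CPM with a median of 75.3. The restricted range lay mostly within that of the controls. The log2 fold change was −0.11 (95% interval −0.37 to 0.14; edgeR adjusted p = 0.587).

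Kdr and Flt1 encode the VEGF receptors of blood endothelium, VEGFR2, which transmits most of the signal, and VEGFR1, which binds VEGF tightly and can act as a decoy. Kdr (chr5:75932827-75978458, minus strand) ranged from 72.9 to 129.9 CPM in controls, with a median of 106.1, and from 80.3 to 122.1 CPM in restricted libraries, with a median of 91.7. Flt1 (chr5:147561604-147726011, minus strand) ranged from 57.2 to 86.7 CPM in controls, with a median of 72.4, and from 49.5 to 89.6 CPM in restricted libraries, with a median of 67.4. Both pairs of ranges overlapped broadly, and neither gene passed. For Kdr the log2 fold change was −0.13 (95% interval −0.34 to 0.08; edgeR adjusted p = 0.432), and for Flt1 it was −0.10 (95% interval −0.30 to 0.10; edgeR adjusted p = 0.518).

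Pecam1, Cdh5 and Cldn5 encode proteins of the contacts between endothelial cells: the adhesion molecule CD31, VE-cadherin of the adherens junction, and claudin 5 of the tight junction. Pecam1 (chr11:106654217-106750628, minus strand) ranged from 127.6 to 191.6 CPM in controls, with a median of 160.2, and from 123.4 to 204 CPM in restricted libraries, with a median of 140.6. Its log2 fold change was −0.21 (95% interval −0.42 to −0.003), which missed the threshold after adjustment (edgeR adjusted p = 0.171). Of the restricted libraries 9 were below the control median, and Restricted 6 was above every control. Cdh5 (chr8:104101625-104144511, plus strand) ranged from 126.0 to 214.3 CPM in controls, with a median of 178.7, and from 132.4 to 240.7 CPM in restricted libraries, with a median of 167.3. Its log2 fold change was −0.10 (95% interval −0.32 to 0.13; edgeR adjusted p = 0.617). The antisense gene Gm29682 overlaps Cdh5 and had 0 to 3 counts per library.

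Cldn5 (chr16:18776847-18778262, plus strand) ranged from 42.6 to 94.8 CPM in controls, with a median of 77.5, and from 49.6 to 72.4 CPM in restricted libraries, with a median of 60.7. All 10 restricted libraries were below the control median, and 6 controls were above the highest restricted library. The other 4 controls, Control 3, 4, 8 and 9, were at 52.6, 42.6, 48.4 and 48.0 CPM, below the restricted median. The controls thus covered a wider range on both sides, and the log2 fold change of −0.27 (95% interval −0.56 to 0.02) did not pass (edgeR adjusted p = 0.219).

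**Figure D2:**
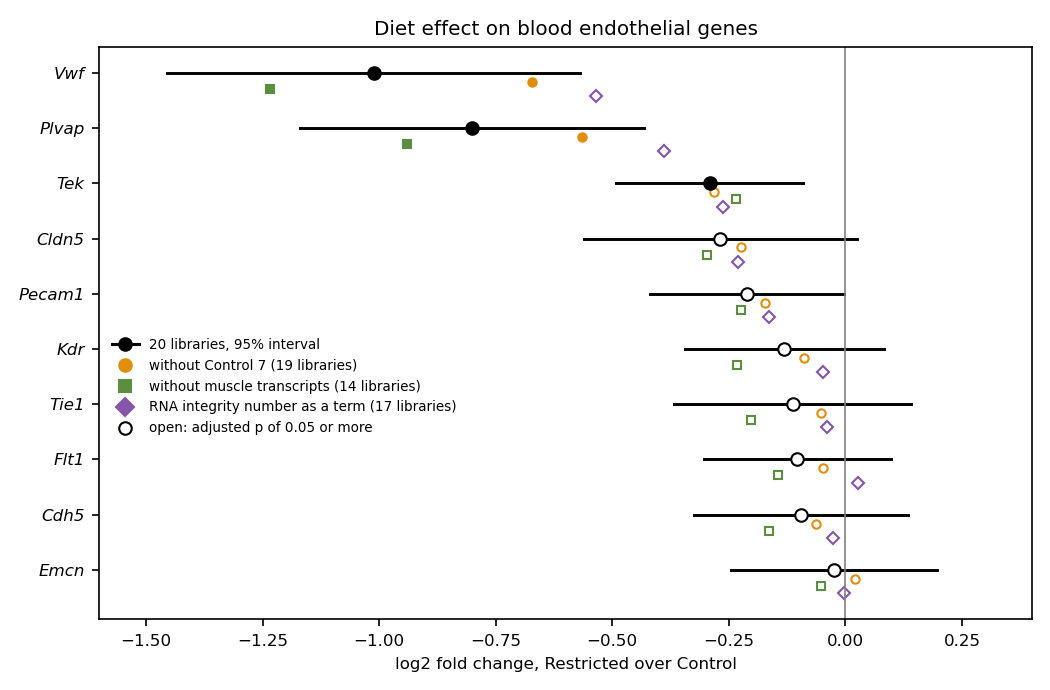
Log2 fold change of each gene, Restricted over Control (x axis), with the 95% interval in the 20 libraries, and below it the value without Control 7, in the 14 libraries without muscle transcripts, and in 17 libraries with RNA integrity as a term (filled symbols, adjusted p under 0.05). Vwf and Plvap lie farthest from 0 in each of the 4 sets, with Vwf between −1.24 and −0.53, and the intervals of the 6 genes from Cldn5 downward other than Pecam1 include 0.

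None of the 10 genes was called by the contamination label, for which 5.3% of all tested genes were called. Vwf came closest, at −0.53 for Yes over No (unadjusted p = 0.0202 and adjusted p = 0.225 in edgeR's quasi-likelihood test). The other 9 had log2 fold changes by label between −0.17 and 0.07.

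Levels of different genes were compared per length, as CPM per kilobase of the deposited gene length. These lengths ran from 1416 bases for Cldn5 to 16064 for Vwf, and the order depends on them. Which transcripts the reads came from was not measured. Cldn5 was highest, at 46.0 ± 10.7 CPM per kilobase (SD, n = 20), followed by Cdh5 at 40.9 ± 6.82. These neighbours were not clearly apart, since Cldn5 was above Cdh5 in 14 of 20 libraries. Pecam1 followed at 24.5 ± 4.04, below Cdh5 in 20 of 20 libraries and above Tie1 in 20 of 20. Tie1 and Plvap averaged 17.04 and 16.98 CPM per kilobase, with SDs of 3.15 and 7.25, and Tie1 was above Plvap in 13 of 20. Their means did not differ beyond their spread. Kdr (11.2 ± 1.81) and Tek (10.4 ± 1.75) formed the next pair, with Kdr above in 13 of 20 libraries. Flt1 was at 5.20 ± 0.734, below Tek in 20 of 20. Vwf (4.07 ± 2.53) and Emcn (3.90 ± 0.609) closed the order, and Vwf was above Emcn in 7 of 20 libraries only, so their order by mean was not that of most libraries. In control libraries the coefficient of variation was 60.1% for Vwf (30.4% without Control 7), 37.6% for Plvap (26.1% without it) and 28.1% for Cldn5 (29.3% without it). Plvap was thus above Cldn5 in relative spread with Control 7 and below it without. In restricted libraries Vwf was at 24.5%, Plvap at 19.7% and Cldn5 at 11.5%, and the other 7 lay between 11.1% and 20.2% in each diet.

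**Figure D3:**
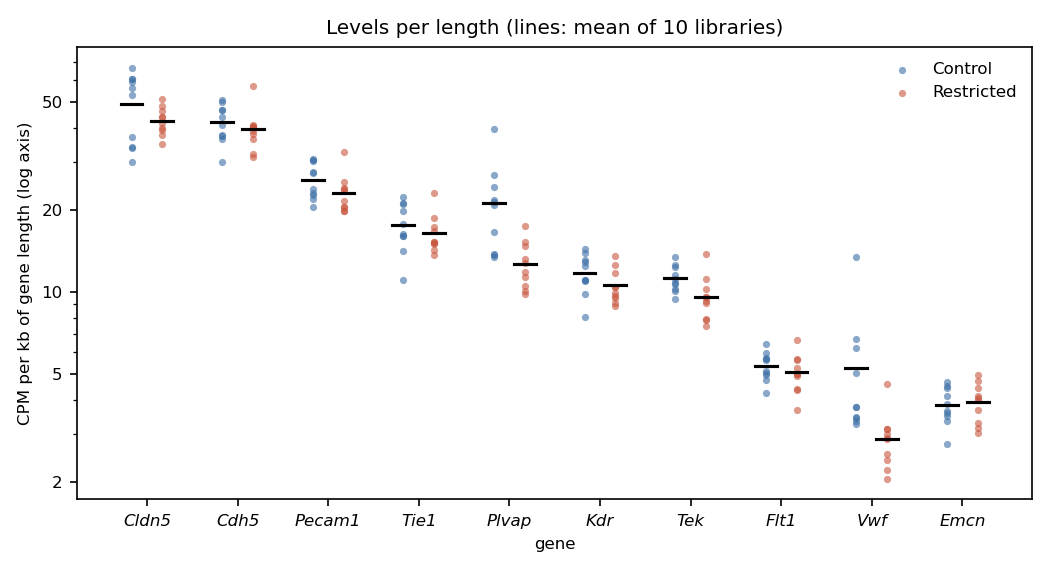
Level per length of each gene (y axis, CPM per kilobase, log axis) in the 10 control and 10 restricted libraries, with the mean of each diet as a line, in the order of the mean over all 20. Cldn5 and Cdh5 lead at means of 46.0 and 40.9, and Vwf and Emcn are lowest at 4.07 and 3.90, with one control of Vwf at 13.5.

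Much of the variation was shared within libraries. Control 7 was the highest control for 5 of the 10 genes and above the control median for 10 of 10, and Control 6 was the highest for 3 and above the median for 10 of 10. Control 3, one of the libraries with muscle transcripts, was the lowest control for 6 genes and above the median for 0. Of the other controls with such transcripts, Control 1, 2 and 5 were above the median for 9, 7 and 10 genes, and Control 4 for 2. Among restricted libraries, Restricted 6 was the highest for 9 of 10 genes, by a median of 0.52 on the log2 scale over the restricted median, and Restricted 10 the lowest for 4. The 10 genes thus varied together from library to library, with Vwf of Control 7 reaching 1.84 on the log2 scale above the control median against 0.26 for the median gene there.

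**Figure D4:**
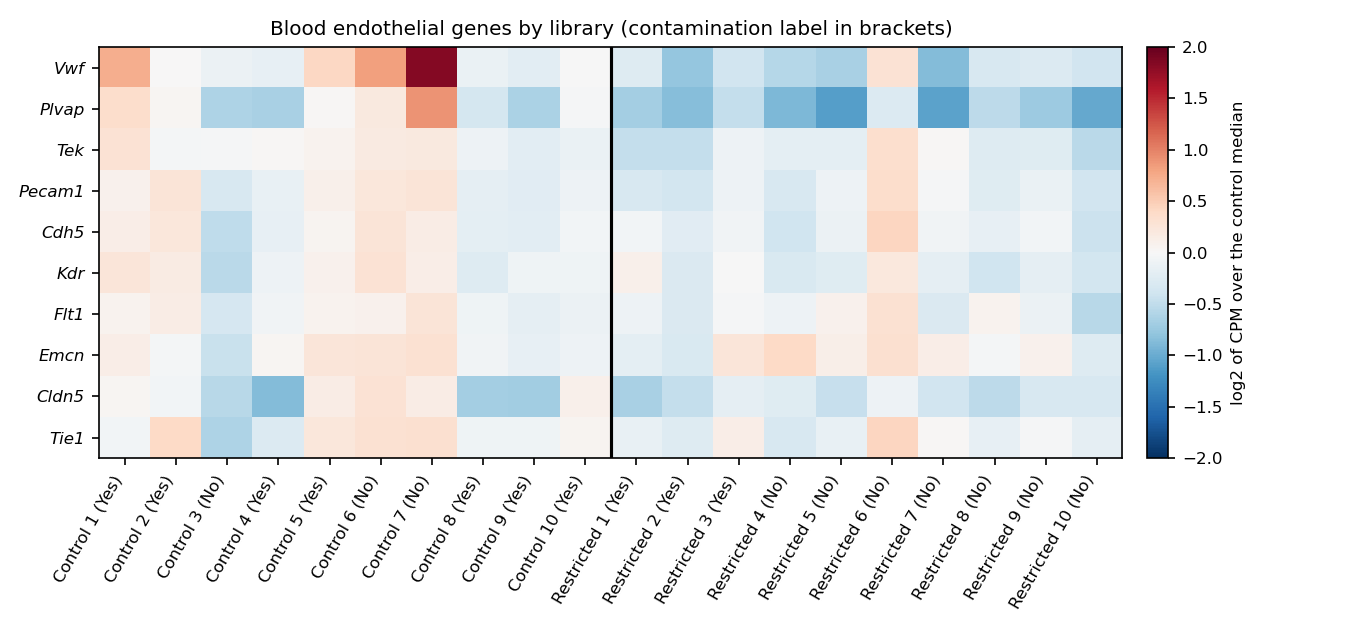
Log2 of each gene's CPM over its control median (colour) in each library (columns; label in brackets; the line parts Control from Restricted) for the 10 genes (rows). Control 7 is the darkest cell for Vwf at 1.84, Control 3 is near white to light blue (−0.0219 to −0.621), and Restricted 6 is pale red for most genes.

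With each gene centred on its diet mean within a label, the 45 pairs of genes had Pearson correlations of 0.39 to 0.98 over the 10 libraries labelled No (median 0.72) and of 0.27 to 0.93 over the 10 labelled Yes (median 0.68). The pair of Vwf and Plvap was at 0.96 and 0.81. These correlations describe genes measured in the same libraries, so they share depth, scaling and tissue makeup. Tek, Emcn and, in label Yes, Tie1 followed the mean of the other 9 least closely, at 0.68 and 0.70 for Tek, 0.78 and 0.65 for Emcn and 0.94 and 0.66 for Tie1 (label No and Yes). The 8 genes outside the list with the highest likeness to its mean log2 CPM, taken as the smaller of the 2 correlations over 10 libraries each, were She, Pdgfrb, Ptprb, Fgd5, Ecscr, Arap3, Fmnl3 and Notch4. She, an adaptor protein, led with 0.93, and Notch4, the endothelial Notch receptor, was at 0.86. Pdgfrb is the PDGF receptor of pericytes, and Ptprb encodes VE-PTP, the phosphatase that acts on TIE2 and VE-cadherin. None of these 8 genes was called by diet, where 13.6% of all tested genes were called in either direction. Their log2 fold changes lay between −0.22 for She and 0.03 for Ecscr.

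Among other genes of VEGF signalling, 2 of 8 tested were called lower and 0 higher, at a median of −0.16. Of all tested genes 7.29% were called lower and 6.31% higher. Vegfa, the main ligand of Kdr and Flt1, was at 385.6 ± 47.3 CPM in controls and 413.5 ± 48.5 CPM in restricted libraries (SD, n = 10 each; log2 fold change 0.10, edgeR adjusted p = 0.463). Vegfb, which binds Flt1, had 0.14 (edgeR adjusted p = 0.203), Pgf, placental growth factor, 0.18 (edgeR adjusted p = 0.576) and Vegfc, a lymphatic growth factor, −0.17 (edgeR adjusted p = 0.465). No ligand of the blood vessel receptors was called. The 2 called were Flt4, the receptor VEGFR3 of lymphatic endothelium (−0.60, edgeR adjusted p = 0.0412), and Vegfd, one of its ligands (−0.23, edgeR adjusted p = 0.0471). Each of these calls was lost without any 1 of 14 of the 20 libraries; without Control 7 the adjusted p was 0.176 for Flt4 and 0.137 for Vegfd.

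Of 6 angiopoietin ligands and partners of the TIE receptors, 1 was called lower and 0 higher, at a median of −0.19. The shares over all tested genes were 7.29% lower and 6.31% higher. It was Angpt4, an angiopoietin of low abundance, which fell from 6.57 ± 3.54 to 2.22 ± 1.24 CPM (SD, n = 10 each; log2 fold change −1.31, edgeR adjusted p = 0.00582). The call held without each single library, with an adjusted p of 0.0429 and a log2 fold change of −0.999 without Control 7. Angpt1, the activating ligand of TIE2, had −0.27 (edgeR adjusted p = 0.285) and Angpt2, its context-dependent antagonist, 0.12 (edgeR adjusted p = 0.700). So 2 of the TIE2 ligands did not pass and the third listed did.

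Lists by vessel type are set beside the 7.29% of all tested genes that were called lower, and differences between the lists were not tested. Of 10 genes listed for the capillaries of fat, 0 were called by edgeR, DESeq2 or limma-voom (1 had an unadjusted p under 0.05 in edgeR's test), at a median of 0.02. Cd36, on this list, was at 2614 ± 214.6 CPM in controls (SD, n = 10), and the cells that the RNAs of this list came from were not measured. Gpihbp1, which carries lipoprotein lipase to the capillary lumen, had 0.18 (edgeR adjusted p = 0.144), and Sparcl1, a matrix protein of vessels, −0.15 (edgeR adjusted p = 0.216). Of 7 tested venous genes, 2 were called lower, at a median of −0.27. Selp, the P-selectin that endothelial cells store together with von Willebrand factor, fell from 6.54 ± 0.992 to 4.32 ± 1.11 CPM (SD, n = 10 each; −0.69, edgeR adjusted p = 0.00300). Slco2a1, a prostaglandin transporter, fell by 0.54 on the log2 scale (edgeR adjusted p = 0.0124). Both were called without each single library. Of 10 arterial genes 1 was called lower, Bmx, a cytoplasmic tyrosine kinase, at −0.74 (edgeR adjusted p = 0.0119), which missed the threshold without Control 7 (−0.62, edgeR adjusted p = 0.0568).

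Further lists of endothelial genes and of the hypoxia response held 0 to 2 calls each, where 7.29% of all tested genes were called lower and 6.31% higher. Of 10 transcription factors of endothelium 0 were called by edgeR, DESeq2 or limma-voom (2 had an unadjusted p under 0.05 in edgeR's test), at a median of −0.11. Sox7 was at −0.26 (edgeR adjusted p = 0.122) and Klf4 at −0.33 (edgeR adjusted p = 0.149). Of 19 further genes of junctions, adhesion and the cell surface, 1 was called lower: Acvrl1, the ALK1 receptor for BMP9, at −0.30 (edgeR adjusted p = 0.0113). Of 8 Notch genes 1 was called lower, Rbpj, the DNA-binding partner of Notch receptors, which is active in many cell types, at −0.31 (edgeR adjusted p = 0.0110). Both held without each single library. Of 8 genes of the cell cycle and of tip cells, 1 was called higher: Apln, the peptide apelin, at 0.53 (edgeR adjusted p = 0.0243), lost without Control 7 (edgeR adjusted p = 0.0613) and without Control 3 or Restricted 1. Of 9 hypoxia genes 2 were called higher. Pdk1, which restrains pyruvate oxidation, was at 0.69 (edgeR adjusted p = 0.0110) and Epas1, the factor HIF-2α, at 0.25 (edgeR adjusted p = 0.0392), and both calls were lost without Restricted 1 (edgeR adjusted p = 0.0669 and 0.156), that of Epas1 also without any 1 of 9 other libraries.

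The calls of these lists were fewer in smaller sets of libraries. With RNA integrity as a term in 17 libraries, Selp remained called (edgeR adjusted p = 0.0382), as did Pdk1 and Epas1 (0.0487 and 0.0428), while Angpt4 (0.112), Slco2a1 (0.218), Acvrl1 (0.199), Rbpj (0.238) and Bmx (0.236) did not. In the 14 libraries without muscle transcripts, Selp (0.0202), Angpt4 (0.0150), Bmx (0.0366) and Vegfd (0.0387) were called, and Slco2a1 (0.164), Acvrl1 (0.0640), Rbpj (0.123), Flt4 (0.0738), Pdk1 (0.180) and Epas1 (0.453) were not.

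**Figure D5:**
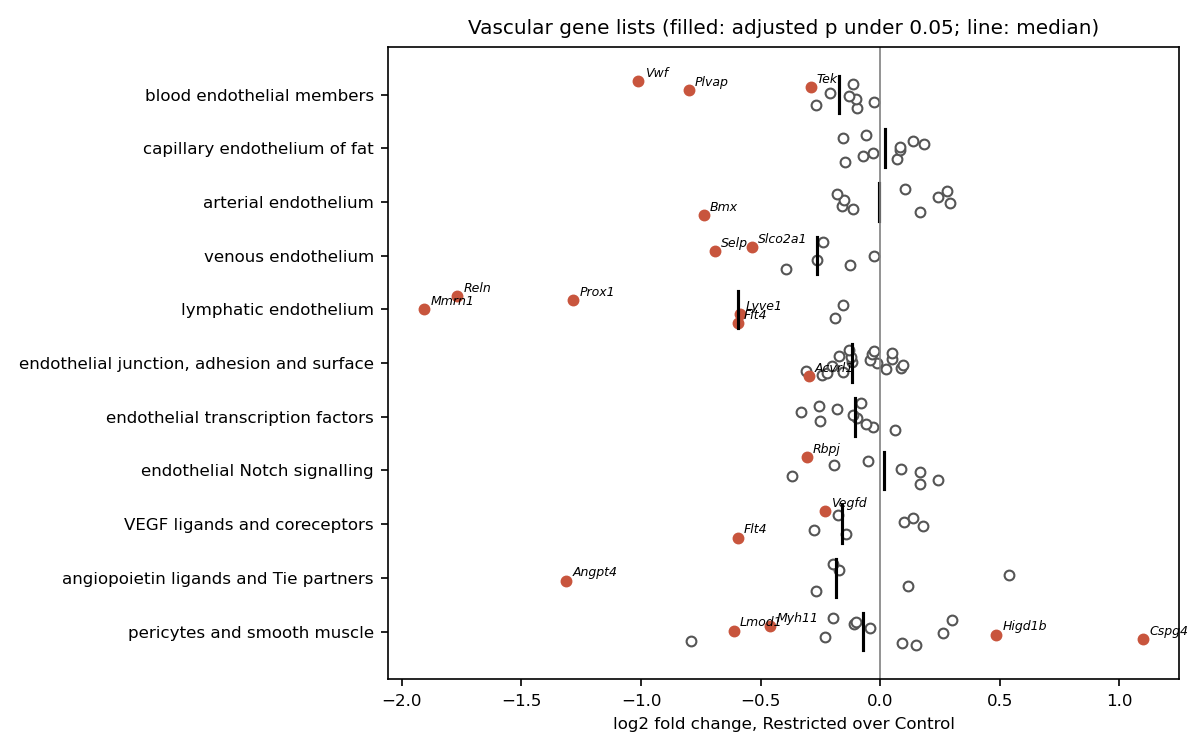
Log2 fold change, Restricted over Control (x axis), of each tested gene in the 10 blood endothelial genes and 10 other vascular lists (rows; filled, adjusted p under 0.05; black line, median of the list). The lymphatic list has the lowest median, −0.60, while the capillary, arterial and Notch lists have medians within 0.02 of 0.

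Genes of neighbouring cell types moved with the diet as well, and their part in the values of the 10 genes was not tested. Their counts stand beside 7.29% of all tested genes called lower and 6.31% called higher. Lymphatic endothelium shares several of these genes, and 5 of its 7 tested markers were called lower, at a median of −0.60. Mmrn1, a multimerin of lymphatic vessels, fell from 14.5 ± 7.80 to 3.63 ± 2.04 CPM and Reln, reelin, from 10.9 ± 5.48 to 2.76 ± 1.497 CPM (SD, n = 10 each), with log2 fold changes of −1.91 (edgeR adjusted p = 0.000962) and −1.77 (edgeR adjusted p = 0.000552). Both were called without each single library and in the 14 without muscle transcripts (edgeR adjusted p = 0.00820 and 0.00442), and neither with RNA integrity as a term (0.103 and 0.0930). Lyve1, a hyaluronan receptor (−0.59, edgeR adjusted p = 0.0114), lost its call without Control 3 (edgeR adjusted p = 0.0585), and Prox1, the lymphatic transcription factor (−1.28, edgeR adjusted p = 0.0150), without Control 7 (edgeR adjusted p = 0.0899). Flt4 was the fifth. The sum of the 8 lymphatic markers was 99.9 to 162 CPM in controls, with Control 7 the highest, and 72.8 to 110.7 CPM in restricted libraries. Lyve1 had the largest part of it, at a mean of 40.2 CPM in controls, against 1.70 CPM for Prox1. Which cells the Lyve1 RNA came from was not measured. Ccl21a, a chemokine of lymphatic vessels, was at 0 in 18 of 20 libraries. Control 7 was the highest control for Vwf and Plvap, but it hardly stood apart in the lymphatic sum, where Control 1 was at 161.4 CPM. Mmrn1 was highest in Control 7 among controls (28.7 CPM). Reln was highest in Control 1 (18.4 CPM, against 15.45 CPM in Control 7), and Prox1 and Flt4 were highest in Control 2.

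Vwf is also made by megakaryocytes and carried by platelets. Of 9 platelet genes 3 were tested and 1 was called lower, Pf4, platelet factor 4, a chemokine also found in macrophages (−0.46, edgeR adjusted p = 0.000524). Itga2b, the platelet integrin, was at 3.78 ± 0.595 and 3.82 ± 0.898 CPM (SD, n = 10 each; 0.13, edgeR adjusted p = 0.549), and Gp9 was at most 0.401 CPM in any library. Gp1ba, the other tested platelet gene, was at 0.913 ± 0.305 and 0.925 ± 0.264 CPM (SD, n = 10 each), and was not called (0.06, edgeR adjusted p = 0.898). The sum of the 9 was 45.4 to 63.5 CPM in controls and 36.4 to 50.01 CPM in restricted libraries. Most of this sum was Pf4, at 50.6 ± 5.34 CPM in controls and 38.1 ± 4.46 CPM in restricted libraries (SD, n = 10 each). Of 11 macrophage markers 10 were called lower, at a median of −0.49, where 7.29% of all tested genes were called lower and 6.31% higher. Their sum was 1065 to 1403 CPM in controls and 858 to 1158 CPM in restricted libraries. The 4 with the smallest p were Cd68, a lysosomal membrane protein (−0.49), Adgre1, the surface marker F4/80 (−0.59), Csf1r, the receptor for the macrophage growth factor CSF1 (−0.59), and Mrc1, the mannose receptor (−0.70), with edgeR adjusted p between 3.71e-05 and 0.000194. Pericytes and smooth muscle, the mural cells around the endothelium, had 2 of 14 genes called higher and 2 lower. Cspg4, the pericyte proteoglycan NG2, rose by 1.099 and Higd1b, a pericyte marker, by 0.48 on the log2 scale (edgeR adjusted p = 0.00121 and 0.0134), both without each single library as well, though in the 14 libraries without muscle transcripts neither passed (edgeR adjusted p = 0.0680 and 0.161), and Lmod1 (−0.61) and Myh11 (−0.46), of smooth muscle, lost their calls without Control 7 (edgeR adjusted p = 0.0574 and 0.0797). Their list sum was 1403 to 1652 CPM in controls and 1500 to 1726 CPM in restricted libraries. Of 8 adipocyte genes 1 was called higher, Lep, the hormone leptin (0.50, edgeR adjusted p = 0.0292; lost without any 1 of 4 libraries), and of 5 tested red cell genes and 8 mesothelial genes 0 were called (0 and 1 at an unadjusted p under 0.05). The 9 tested skeletal muscle genes had 0 calls (2 at an unadjusted p under 0.05), with list sums of 28.8 to 2172 CPM in controls and 40.8 to 4161 CPM in restricted libraries. DESeq2 and limma-voom also called 0 genes of these 3 lists. The members with the smallest p were the globin genes Hba-a1 (−0.17) and Hba-a2 (0.18), which are near-identical copies, Wt1 (−0.62) and Lrrn4 (−0.60) of mesothelium, and Ryr1 (−1.31) and Myh1 (−2.65) of muscle, with edgeR adjusted p from 0.117 to 0.627.

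Of 12 male germ cell genes 1 was tested, Sycp3, a protein of the meiotic chromosome axis, and it was called higher, from 2.03 ± 0.514 to 5.21 ± 2.82 CPM (SD, n = 10 each; log2 fold change 1.37, edgeR adjusted p = 0.000912), also without each single library. Over all tested genes 6.31% were called higher. The label Yes is less frequent among the restricted libraries, where Sycp3 was higher. The sum of the 12 was 2.71 to 40.05 CPM in controls, with Control 6 the highest, and 3.10 to 118.1 CPM in restricted libraries, with Restricted 2 the highest. Of 10 genes of epididymal epithelium 0 were tested, and their sum was 0.106 to 449.1 CPM in controls and 0.0449 to 5.24 CPM in restricted libraries. Of 4 tested genes of testis somatic cells 0 were called by edgeR, DESeq2 or limma-voom (0 at an unadjusted p under 0.05); Star, of steroid synthesis, had 0.23 (edgeR adjusted p = 0.429) and Dhh, a hedgehog ligand, −0.19 (edgeR adjusted p = 0.711), and the sum was 12.9 to 21.8 CPM in controls and 9.04 to 24.9 CPM in restricted libraries.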

How the data were processed

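PolyA RNA of eWAT was read as 52-base paired ends, per the labels' protocols; their extraction text names QUAD, and the tissue label, eWAT, was used. STAR, Salmon, bcl2fastq 4.0.3 and the build GRCm38 are named in the submitters' processing notes. The authors deposited whole-number counts per gene with gene lengths; not given in the sources used here: counting tool, annotation release, strand setting. The test of these counts was the two-sided quasi-likelihood test of edgeR 4.0.16 (R 4.3.3), after filterByExpr (minimum count 10) and TMM scaling, with contamination label and diet as terms, Benjamini-Hochberg adjustment at 0.05 over 15986 genes. Label and interaction effects used the same genes. Alternatives used DESeq2 1.42.0, limma 3.58.1, other factors, filters, covariates and subsets of libraries. The steps were tested on simulated data.

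The members, the 21 other gene lists and the rule for named genes were chosen with earlier results of these data known. Named were all members, up to 4 called genes of a list (otherwise up to 2 with the smallest p), 6 VEGF and angiopoietin ligands and the 8 most like genes. Gtpbp3, Gm29682, Itga2b, Gp1ba, Gp9, Ccl21a, Cd36, Ckm, Ttn, Adipoq and Prm2 were added as checks. Itga2b, Gp1ba, Gp9, Ccl21a, Cd36, Ckm and Ttn were chosen after their values were seen. Promoters came from RefSeq (GRCm38.p6). At 217 or more counts per member and library, counting error is small beside the spread between libraries.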

Additional observations from a re-analysis of the deposited data

Results flagged for a closer look

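Values that lay far from the other 9 of their diet, relative to the range of that diet, were found in 5 of 20 groups of 10 libraries; by this criterion chance marks about 1 in 20 groups, and the 10 genes move together, so the marks are not separate. In Control 7, Vwf was at 216.9 CPM, where the next control was at 107.4 CPM, and Plvap was at 78.7 CPM, where the next control was at 53.5 CPM. In Restricted 6, Vwf was at 73.8 CPM against 50.4 CPM for the next restricted library, Pecam1 at 204 CPM against 158 CPM, and Cdh5 at 240.7 CPM against 172.9 CPM.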

How the results depend on the processing

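Log2 fold changes are Restricted over Control, with edgeR adjusted p in brackets unless another tool is named. Vwf and Plvap stayed negative under all alternatives and were called with RLE or upper-quartile factors, DESeq2, limma-voom, both other filters, no label term, a muscle index, 14 libraries and label No alone. They were also called without Control 6, Restricted 1 and Restricted 3, a set added after seeing the data. They missed the threshold with germ cell and epididymis indices in place of the label (Vwf −0.81 [0.113], Plvap −0.62 [0.0814]), the RNA integrity number (−0.53 and −0.39), label Yes alone (−0.58 and −0.52), and, added after seeing the data, the 14 libraries without Control 7 (−0.77 and −0.61) and the 16 libraries without Control 6, Control 7, Restricted 1 and Restricted 3 (−0.57 and −0.43); Plvap also did in the 17 libraries without the integrity term (−0.52). Tek missed it with limma-voom (−0.25), no filter (−0.29), no label (−0.22), the germ cell and epididymis indices (−0.24), a muscle index (−0.29), 14 libraries (−0.23), the integrity number (−0.26), those 17 libraries (−0.27), label No (−0.25) or Yes (−0.33) alone, without Control 6, Restricted 1 and Restricted 3 (−0.29), in the 14 without Control 7 (−0.20) and in those 16 (−0.29). Same-numbered libraries, less the means of their diet and label, correlated at −0.0964 to 0.0931. This does not exclude that the replicate number pairs the libraries by design. With the number as a replicate block, Vwf was at −0.82 [0.0503], Plvap at −0.68 [0.0555] and Tek at −0.23. Signs turned for Cdh5 (0.00169 with the indices, 0.104 in the 16), Kdr (0.0275 in the 16), Flt1 (0.0261 with the integrity number, 0.00342 in the 16), Tie1 (0.0131 with the block, 0.137 in the 16) and Emcn (0.0335 with no label, 0.0159 with the indices, 0.0427 in 17 libraries, 0.0366 in label No, 0.0678 with the block, 0.108 in the 16); the cause was not tested. Leaving out 1 library gave −1.12 to −0.67 for Vwf, −0.90 to −0.57 for Plvap, −0.34 to −0.26 for Tek, −0.29 to −0.17 for Pecam1, −0.18 to −0.03 for Cdh5, −0.21 to −0.05 for Kdr, −0.17 to −0.05 for Flt1, −0.12 to 0.0302 for Emcn, −0.35 to −0.19 for Cldn5 and −0.22 to −0.05 for Tie1. Of the 10 genes, 3 were called lower, 2 to 3 without 1 library, 1 in the 17 libraries, and 0 with the indices, the integrity number, label Yes alone, the block, the 14 without Control 7 or the 16. Over all genes 2173 were called, against 995 with the indices, 927 in 14 libraries, 392 with the integrity number, 1445 in the 17, 400 in label No, 239 in label Yes, 1388 with the block, 637 without Control 6, Restricted 1 and Restricted 3, 203 in the 14 without Control 7 and 197 in the 16. Over the alternatives with all or part of the libraries, the lymphatic list had 0 to 6 genes called lower and the venous list 0 to 3.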
